A study of Mus musculus with 24 samples.

Results

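The genes described here encode the nuclear part of the mitochondrial respiratory chain and ATP synthase. They were chosen by name from the deposited count table: protein-coding genes whose symbols begin with Nduf followed by a, b, s, v or c, the symbols Sdha to Sdhd, and symbols that begin with Uqcr, with Cox4 to Cox8 or with Atp5. The rule found 96 of the 55487 genes in the table. Of these, 37 encode subunits of complex I, 4 of complex II, 8 of complex III, 21 of complex IV and 18 of complex V, and 8 are assembly factors of complex I, which the name rule also takes in. Ndufa4 and its paralogue Ndufa4l2 were counted with complex IV, where the NDUFA4 protein is known to sit. The genes lie on 19 chromosomes, with 3 on X and 0 on Y.

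The respiratory chain moves electrons from NADH and succinate to oxygen through complexes I to IV of the inner mitochondrial membrane and pumps protons as it does so. Complex V uses the proton gradient to make ATP. Most subunits are made from nuclear genes and imported, while a small set of core subunits is made from mitochondrial DNA. Complexes I, III, IV and V therefore need transcripts from both genomes, while complex II is made from nuclear genes alone. Alveolar macrophages live in a lipid-rich and oxygen-rich space and are known for oxidative and fatty acid metabolism.

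The values come from 24 bulk RNA-seq libraries of sorted mouse tissue macrophages, 3 libraries in each of 8 groups. The groups are Z165KO (KO here) and wild-type (WT) alveolar macrophages of the lung, KO and WT Kupffer cells of the liver, KO and WT microglia of the brain, and KO and WT splenic macrophages. Each RNA sample came from 100000 sorted macrophages. The labels do not describe the Z165KO allele, the age of the mice or the sorting gate. Whether the 3 libraries of a group came from different mice is not stated either, so the spread that the p-values rest on may be technical.

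Library totals ran between 50449347 and 65981787 counts, and every pair of replicates differed by more than sampling noise (chi-square per degree of freedom of at least 32.7). The defining markers of each labelled cell type were high in its own libraries, with summed CPM (counts scaled to the library total) of at least 14715 for the type's own list. Zeb2, which the series title names, had 139, 126 and 142 CPM in KO alveolar macrophages against 297, 282 and 190.4 CPM in WT alveolar macrophages, while KO and WT values overlapped in the other 3 types. B cell markers differed by genotype, with summed CPM of 26.7 to 35.7 in KO against 452 to 730 in WT splenic libraries, 16.8 to 22.8 against 253 to 421 in Kupffer cells and 0.0164 to 1.12 against 21.3 to 29.3 in alveolar macrophages. In the spleen erythroid markers summed to 11766 to 19530 CPM in KO and 4050 to 16129 CPM in WT libraries. The part of these other cells in the results was not tested. WT microglia replicate 2 stood apart from the other WT microglia libraries. It held 20646 genes with at least 10 counts, against 17220 and 18198 in replicates 1 and 3, and mitochondrial transcripts were 0.317% of its counts, against 0.132% and 0.151%. Its summed level of respiratory chain genes was also the highest of the 6 microglia libraries, so the WT microglia counts, and the values of genes and complexes that it moved most, are given with and without it.

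Of the 96 genes, 92 had enough counts to be tested between cell types. The 4 that did not were 3 isoform genes known from testis or muscle and a second Ensembl entry for Atp5o, the stalk subunit OSCP, which was at 0 in all 24 libraries and shares 83.8% of its 75-base stretches with other transcripts. Cox7b2 had 6 counts over all libraries and was at 0 in 22 of them, Cox8c had 15 counts and was at 0 in 21, and Cox8b had 16 counts and was at 0 in 17. Over a group of 3 libraries, 3 counts correspond to between 0.016 and 0.0191 CPM, which is the limit that a count of 0 allows. In all, 52 of the 96 genes shared no 75-base stretch with a transcript of another gene. The largest overlaps among expressed genes were 63.2% for Ndufaf2, 43.0% for Cox5b-ps, mostly with Cox5b, and 35.8% for Atp5g2, so values of these 3 are uncertain. Next came the expressed Atp5o entry, at 34.2%, and Ndufb6, at 27.8%, and their values are uncertain too.

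Levels differed widely between the genes of one complex, measured in TPM (counts per transcript length, as a share of the library) averaged over the 24 libraries. In complex I the highest was Ndufa2, at 301 TPM, and the lowest Ndufb2, at 3.41 TPM. In complex II Sdhd, a membrane anchor, stood at 344 TPM and Sdhc, the other anchor, at 91.3 TPM. In complex III the small subunit gene Uqcr10 reached 297 TPM and Uqcrq 87.1 TPM. Complex IV held the highest value of all, 683 TPM for Cox6a1, beside 533 TPM for Cox8a and 497 TPM for Cox6b1, and also the lowest, 0.0268 TPM for Cox7b2. In complex V the alpha and beta subunits of the F1 head, Atp5a1 and Atp5b, reached 603 and 542 TPM, and the lowest expressed gene was Atp5l, at 14.3 TPM. The assembly factors were all low, between 4.87 TPM for Ndufaf2 and 39.6 TPM for Ndufaf8.

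Alveolar macrophages carried the most respiratory chain transcript and microglia the least, in both genotypes. The summed TPM of all 96 genes was 15032, 17087 and 16247 in KO alveolar macrophages and 14061, 14728 and 16457 in WT alveolar macrophages. Kupffer cells held 13014, 13478 and 13664 TPM in KO and 12634, 13496 and 13827 TPM in WT libraries. Splenic macrophages held 8857, 8784 and 10607 TPM in KO and 11242, 10573 and 10644 TPM in WT libraries. Microglia held 7256, 7754 and 7763 TPM in KO and 7395, 10186 and 7797 TPM in WT libraries. In each genotype the order was alveolar, Kupffer, splenic and microglia, and the libraries of neighbouring types did not overlap. These sums are shares of each library's transcripts, and in bulk samples fewer cells of a type and less RNA per cell cannot be told apart.

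**Figure D1:**
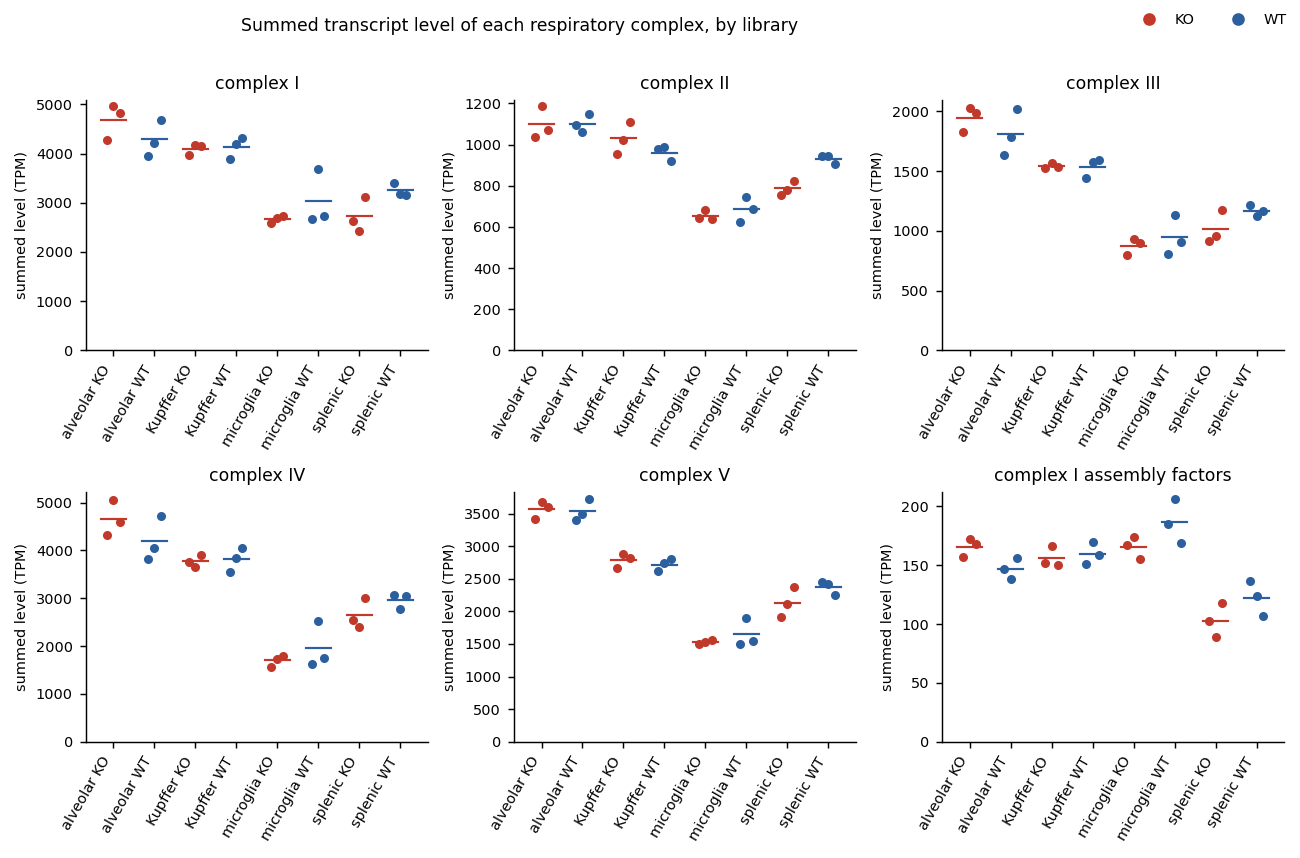
Summed TPM of the nuclear-encoded genes of each complex and of the complex I assembly factors, with 1 point per library, KO left of WT in each cell type. Complex IV spans 1566 to 2519.9 TPM in microglia and 3821 to 5055 TPM in alveolar macrophages, while the assembly factors are lowest in splenic macrophages, at 88.7 to 137 TPM.

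The gap between microglia and alveolar macrophages was not the same in every complex. KO microglia held 36.5% of the complex IV transcript level of KO alveolar macrophages, 42.8% of complex V, 44.9% of complex III, 57.0% of complex I and 59.6% of complex II. In WT libraries the shares were 46.8% for complex IV, 46.6% for complex V, 52.3% for complex III, 62.3% for complex II and 70.6% for complex I. Without microglia replicate 2 the WT shares were 40.1% for complex IV, 43.1% for complex V, 47.2% for complex III, 59.6% for complex II and 63.0% for complex I. Over all 96 genes microglia held 47.1% of the alveolar level in KO and 56.1% in WT libraries, and 50.4% in WT libraries when microglia replicate 2 was left out. The assembly factors of complex I were an exception, with a microglial level of 100% of the alveolar level in KO and 127% in WT libraries. Summed TPM of complex IV was 1566, 1737 and 1796 in KO microglia and 1617, 2519.9 and 1749 in WT microglia, against 4331, 5055 and 4587 in KO alveolar macrophages and 3821, 4042 and 4722 in WT alveolar macrophages. Not every pair of types was apart in every complex. For complex I, KO microglia (2587 to 2724 TPM) overlapped KO splenic macrophages (2435 to 3117 TPM). WT microglia replicate 2 (3681 TPM) lay above all 3 WT splenic libraries, and WT alveolar macrophages (3960.2 to 4688 TPM) overlapped WT Kupffer cells (3895 to 4307 TPM). For complex II, KO alveolar macrophages overlapped KO Kupffer cells, and WT Kupffer cells overlapped WT splenic macrophages. Complex III overlapped between microglia and splenic macrophages in both genotypes, and complex IV between WT alveolar macrophages and WT Kupffer cells.

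Gene by gene, each cell type was compared with the mean of the other 3 within a genotype, by edgeR's quasi-likelihood test (two-sided) across all genes. The call was an adjusted p (Benjamini-Hochberg) under 0.05. The KO libraries and the WT libraries were fitted separately, and within a genotype the 4 comparisons share libraries. By mean CPM, alveolar macrophages were the highest type for 67 of the 92 tested members in KO and 58 in WT libraries, and microglia the lowest for 71 in KO and 67 in WT libraries. In an F test across the 4 types, 82 of 92 tested members were called in KO libraries, where 56.9% of all genes tested were called, and 54 of 92 in WT libraries, where 52.3% were called. The WT count was 72 without microglia replicate 2. The shares of all genes, here and below, come from the fits with all libraries. Counts from fits with a library left out are not set against a share of all genes.

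In KO alveolar macrophages 73 of 92 members were higher than the mean of the other types and 1, Cox6a2, was lower, in a fit that called 20.6% of all genes higher and 19.5% lower. The members' median log2 difference was 0.76 and that of all genes tested -0.07. In WT alveolar macrophages 46 members were higher and 2 (Cox6a2 and Ndufaf7) lower, against 17.3% and 14.7% of all genes, with a median log2 difference of 0.46 for the members and -0.0034 for all genes. All 46 genes called higher in WT were also called in KO libraries, which is 100% of the WT list and 63.0% of the KO list. The WT count of higher members was 28 when alveolar replicate 2 or replicate 3 was left out and 61 without microglia replicate 2.

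In KO microglia 74 members were lower and 2 (Ndufaf7 and Ndufa4l2) higher, where 21.2% of all genes were called lower and 22.3% higher, and the median log2 difference was -0.70 for the members and 0.03 for all genes. In WT microglia 50 were lower and 6 higher, against 20.3% and 21.7% of all genes, with medians of -0.46 for the members and 0.02 for all genes. Of the 50 genes lower in WT, 49 were also lower in KO libraries, or 98.0% of the WT list and 66.2% of the KO list. Without WT microglia replicate 2 the WT counts were 67 lower and 2 higher, and without replicate 1 or replicate 3 the lower count was 33 or 31.

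Kupffer cells and splenic macrophages lay between. In KO Kupffer cells 24 members were higher and 3 lower (15.7% and 7.79% of all genes), and in WT Kupffer cells 2 were higher and 3 lower (15.2% and 7.58% of all genes). The WT counts became 10 higher and 5 lower without microglia replicate 2, and the KO count of higher members became 11 without Kupffer KO replicate 1 and 8 without replicate 3. In KO splenic macrophages 25 were lower and 2 higher (11.4% and 17.4% of all genes), and the lower count became 10 without splenic KO replicate 1 and 9 without replicate 2. In WT splenic macrophages 3 were lower and 2 higher (9.69% and 14.5% of all genes), and no member was lower without splenic WT replicate 1 or replicate 2, so the WT shares of both types lie below the background.

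**Figure D2:**
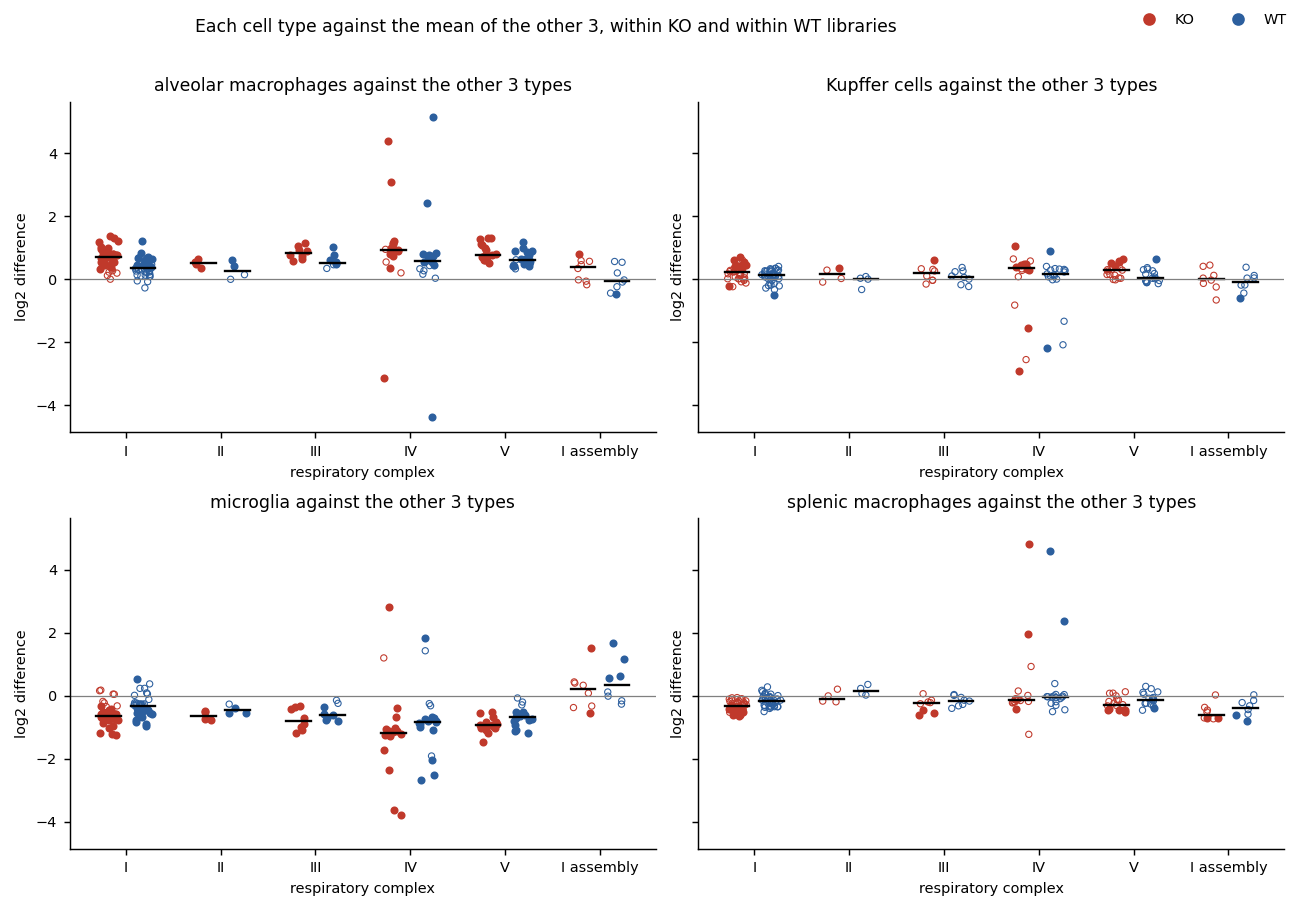
Log2 difference of each tested member between a cell type and the mean of the other 3, by complex, KO left and WT right in each cell type; filled points were called, open points were not, and the black bar is the median. The points lie mostly above 0 in alveolar macrophages and mostly below 0 in microglia, apart from the assembly factors.

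By complex, all 17 tested genes of complex V and all 8 of complex III were higher in KO alveolar macrophages and lower in KO microglia. In WT libraries 13 of 17 complex V genes and 6 of 8 complex III genes were higher in alveolar macrophages, and the same numbers were lower in microglia. Of the 18 tested complex IV genes, 14 were higher in KO and 12 in WT alveolar macrophages, and 16 were lower in KO and 13 in WT microglia. Complex I was less uniform, with 29 of 37 genes higher in KO and 13 in WT alveolar macrophages, and 28 lower in KO and 15 in WT microglia. All 4 genes of complex II were higher in KO alveolar macrophages and lower in KO microglia, while in WT libraries 2 were higher in alveolar macrophages and 3 lower in microglia. Without WT microglia replicate 2 the genes lower in WT microglia were 25 of complex I, 4 of complex II, 7 of complex III, 15 of complex IV and 16 of complex V.

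The catalytic and core subunits followed the same order. Atp5b, the catalytic beta subunit of ATP synthase, had a log2 difference of 0.94 in KO alveolar macrophages (SE 0.09, edgeR adjusted p = 7.92e-06) and 0.89 in WT (SE 0.09, adjusted p = 1.27e-05), and of -1.06 in KO microglia (SE 0.10, adjusted p = 7.2e-06) and -0.92 in WT microglia (SE 0.10, adjusted p = 1.93e-05). Its level averaged 1112 ± 35.8 CPM in KO and 1107 ± 66.6 CPM in WT alveolar macrophages, and 389.7 ± 14.5 CPM in KO and 416 ± 47.3 CPM in WT microglia (SD, n = 3 each). Atp5a1, the alpha subunit of the same head, differed by 0.70 in KO and 0.57 in WT alveolar macrophages and by -0.83 in KO and -0.75 in WT microglia on the log2 scale, all called. Uqcrfs1, the Rieske iron-sulfur protein of complex III, differed by 0.93 in KO and 1.04 in WT alveolar macrophages and by -0.69 in KO and -0.76 in WT microglia, all called.

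The flavoprotein subunits take in the electrons. Ndufv1, which holds the NADH site of complex I, was higher by 0.83 in KO and 0.66 in WT alveolar macrophages on the log2 scale, and Sdha, the flavoprotein of complex II, by 0.55 in KO and 0.63 in WT alveolar macrophages, all called. Both were lower in microglia, with log2 differences of -0.54 in KO and -0.43 in WT for Ndufv1 and of -0.46 in KO and -0.54 in WT for Sdha, all called. Some partners did not pass the test in WT libraries. Ndufs1, an iron-sulfur subunit of complex I, was called higher in alveolar macrophages of both genotypes (log2 difference 0.72 in KO and 0.51 in WT) and lower in KO microglia, but in WT microglia its log2 difference was -0.27 (SE 0.12, adjusted p = 0.106), and -0.16 without replicate 2 (adjusted p = 0.345). Sdhb, the iron-sulfur subunit of complex II, had a log2 difference of 0.15 in WT alveolar macrophages (adjusted p = 0.344) and -0.26 in WT microglia (adjusted p = 0.0832), while the KO values of 0.35 and -0.52 were called. Uqcrc1, a core protein of complex III, was called in alveolar macrophages and in KO microglia, and had a log2 difference of -0.23 in WT microglia (adjusted p = 0.0938). Both genes were called lower there without WT microglia replicate 2, Sdhb at -0.40 (adjusted p = 0.012) and Uqcrc1 at -0.34 (adjusted p = 0.0287). The KO calls of Sdhb in alveolar macrophages and of Uqcrc1 in microglia were lost when most single libraries were left out (adjusted p up to 0.144 and 0.206).

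Cox5a, a nuclear subunit of cytochrome oxidase, was low in microglia beside all other types. It had 19.8, 21.1 and 20.5 CPM in KO microglia and 20.4, 36.1 and 19.5 CPM in WT microglia. KO libraries of the other types held 117, 129.9 and 130 CPM in alveolar macrophages, 116, 118 and 158 CPM in Kupffer cells and 73.0, 57.9 and 83.8 CPM in splenic macrophages. WT libraries held 102, 114 and 118 CPM in alveolar macrophages, 114, 146 and 129.9 CPM in Kupffer cells and 92.1, 84.3 and 84.5 CPM in splenic macrophages. Every microglia library lay below every library of the other types. The log2 difference of microglia was -2.35 in KO (SE 0.15, edgeR adjusted p = 5.21e-07) and -2.04 in WT (SE 0.19, adjusted p = 8.53e-06), and -2.35 in WT without replicate 2. Kupffer cells were higher for Cox5a by 1.06 in KO (SE 0.12, adjusted p = 9.95e-05) and 0.89 in WT (SE 0.16, adjusted p = 0.00185). Cox5a lies at chr9:57521274-57532426 on the plus strand (GRCm38).

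Atp5g3 is one of the genes for the c subunit, the proton-carrying ring of ATP synthase, and showed the largest alveolar difference among the complex V genes in WT libraries. Its values were 175, 220.5 and 252 CPM in KO and 198, 235 and 232 CPM in WT alveolar macrophages, and 49.9, 51.5 and 51.6 CPM in KO and 47.1, 92.4 and 50.2 CPM in WT microglia. Kupffer libraries held 124, 129.8 and 132 CPM in KO and 116, 126 and 129.8 CPM in WT, and splenic libraries 88.0, 98.3 and 124 CPM in KO and 126, 109.5 and 126 CPM in WT. The alveolar libraries lay above all others and the microglia libraries below, except that WT microglia replicate 2 lay above the lowest splenic KO library. The log2 difference was 1.3 in KO alveolar macrophages (SE 0.11, edgeR adjusted p = 3.55e-06) and 1.18 in WT (SE 0.16, adjusted p = 0.000201). In microglia it was -1.46 in KO (SE 0.12, adjusted p = 4.44e-06) and -1.19 in WT (SE 0.19, adjusted p = 0.000419), and -1.53 in WT without replicate 2. The 3 c subunit genes encode the same mature protein, and Atp5g3 made up 68.6% of their summed TPM in KO and 73.2% in WT alveolar macrophages, against 56.1% in KO and 55.0% in WT microglia. Atp5g2 held 28.2% in KO and 28.9% in WT microglia, against 16.6% in KO and 14.0% in WT alveolar macrophages, and Atp5g1 held between 11.9% and 16.0% in every group. In complex I the largest difference in WT alveolar macrophages was that of Ndufb1-ps, annotated as protein coding in spite of its name, at 1.21 on the log2 scale (SE 0.20, adjusted p = 0.000608), with 1.39 in KO (SE 0.12, adjusted p = 5.05e-06).

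The promoters of Cox5a and Atp5g3 are shown because both genes are described above library by library. The stretches run from 250 bases before to 50 bases after the RefSeq gene start (GRCm38.p6), Cox5a at chr9:57520982-57521281 on the plus strand and Atp5g3 at chr2:73911277-73911576 on the minus strand. Capitals mark matches to 4 motifs searched on both strands: GCGCANGCG for NRF1, CCGGAAG for GABP and other ETS factors, AAGATGGCG for YY1 and TCAAGGTCA for the estrogen-related receptors (ERR), all known regulators of respiratory chain genes.
Cox5a: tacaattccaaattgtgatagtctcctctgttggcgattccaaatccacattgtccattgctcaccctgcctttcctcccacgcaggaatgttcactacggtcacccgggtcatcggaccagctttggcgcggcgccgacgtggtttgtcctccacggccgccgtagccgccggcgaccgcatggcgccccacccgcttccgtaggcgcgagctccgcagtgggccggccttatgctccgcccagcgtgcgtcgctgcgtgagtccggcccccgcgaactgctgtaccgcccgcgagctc
Atp5g3: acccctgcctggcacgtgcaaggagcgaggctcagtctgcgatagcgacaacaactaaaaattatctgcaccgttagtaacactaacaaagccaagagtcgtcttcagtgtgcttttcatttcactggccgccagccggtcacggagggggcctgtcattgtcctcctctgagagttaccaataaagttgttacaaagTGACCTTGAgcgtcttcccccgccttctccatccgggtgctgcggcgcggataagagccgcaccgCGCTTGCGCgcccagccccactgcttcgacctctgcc
Cox5a held none of the 4 motifs in this window, and Atp5g3 held an ERR and an NRF1 match.

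Promoter stretches were found for 76 of the 94 members that lie outside chromosome 18. The NRF1 motif occurred in 22 of them (28.9%), against 7.03% of 27024 promoters of all genes, and the GABP/ETS motif in 19 (25%), against 9.93%. The YY1 motif occurred in 8 (10.5%), against 1.64%, and the ERR motif in 2 (2.63%), against 0.466%. At least 1 of the 4 motifs was present in 40 of 76 (52.6%), against 16.9% of all genes. The share was 51.4% among genes called lower in WT microglia (19 of 37 with a sequence), 48.6% among genes called higher in WT alveolar macrophages (17 of 35) and 59.4% among tested genes in neither list (19 of 32). A match describes letters in the window and not a bound site.

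Not every member went down in microglia. Ndufaf7, a methyltransferase known from human cells to act in the assembly of complex I, had 45.4, 37.4 and 40.3 CPM in KO microglia and 37.2, 45.7 and 40.0 CPM in WT microglia. In KO libraries the other types held 14.6, 19.0 and 17.6 CPM (alveolar), 13.02, 14.4 and 15.7 CPM (Kupffer) and 11.5, 6.82 and 18.6 CPM (splenic). In WT libraries they held 14.5, 11.1 and 15.8 CPM (alveolar), 17.5, 11.96 and 12.8 CPM (Kupffer) and 11.99, 11.5 and 12.6 CPM (splenic). All 6 microglia libraries lay above all 18 others. The log2 difference of microglia was 1.53 in KO (SE 0.21, edgeR adjusted p = 0.000156) and 1.69 in WT (SE 0.14, adjusted p = 2.89e-06). Ndufaf7 was lower in WT Kupffer cells (-0.59, adjusted p = 0.0164), WT splenic macrophages (-0.62, adjusted p = 0.0128) and WT alveolar macrophages (-0.48, adjusted p = 0.0339), each set against a mean that includes microglia. These 3 calls were lost when single libraries were left out, among them alveolar replicate 2 for alveolar macrophages (adjusted p = 0.176), Kupffer replicate 2 or 3 for Kupffer cells (adjusted p = 0.0978 and 0.0885) and splenic replicate 1 or 2 for splenic macrophages (adjusted p = 0.0628 and 0.0604).

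Of the other assembly factors, 3 were called higher in WT microglia and 0 in KO microglia. Ndufaf6 had 9.56, 10.9 and 6.07 CPM in KO microglia and 11.97, 13.1 and 10.2 CPM in WT microglia, with log2 differences of 0.34 in KO (SE 0.26, adjusted p = 0.321) and 1.19 in WT (SE 0.19, adjusted p = 0.000538). Ndufaf3 and Ndufaf4, known to act together early in complex I assembly, differed by 0.41 in KO (adjusted p = 0.0693) and 0.64 in WT (adjusted p = 0.0234), and by 0.45 in KO (adjusted p = 0.116) and 0.58 in WT (adjusted p = 0.0459). Ndufaf4 lost its WT call without microglia replicate 2 (log2 difference 0.49, adjusted p = 0.15) and when most other single libraries were left out. Ndufaf3 lost its WT call without microglia replicate 2 (log2 difference 0.37, adjusted p = 0.17) and without alveolar replicate 1 (adjusted p = 0.0504). In KO libraries Ndufaf8 was lower in microglia, at -0.53 (adjusted p = 0.0401), a call lost without most single libraries (adjusted p up to 0.194), and higher in alveolar macrophages by 0.81 (adjusted p = 0.00328). Among structural subunits of complex I, Ndufc2 alone was called higher in WT microglia, by 0.53 (SE 0.16, adjusted p = 0.0178), with 0.19 in KO (adjusted p = 0.24). This call was lost without microglia replicate 2 (0.26, adjusted p = 0.132). Ndufc2 was lower in WT Kupffer cells, at -0.51 (adjusted p = 0.0445), a call that was lost when most single libraries were left out (adjusted p up to 0.158, without Kupffer replicate 1).

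The promoter of Ndufaf7, the member with the highest contrast in favour of microglia among the well expressed genes, lies at chr17:78936885-78937184 on the plus strand (GRCm38.p6) and held none of the 4 motifs in this window.
Ndufaf7: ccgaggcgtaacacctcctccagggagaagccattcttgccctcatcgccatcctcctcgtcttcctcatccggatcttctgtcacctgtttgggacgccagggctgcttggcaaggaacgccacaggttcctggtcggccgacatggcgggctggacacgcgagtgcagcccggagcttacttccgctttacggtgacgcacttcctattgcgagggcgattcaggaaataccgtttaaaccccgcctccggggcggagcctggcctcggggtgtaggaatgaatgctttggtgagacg

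**Figure D3:**
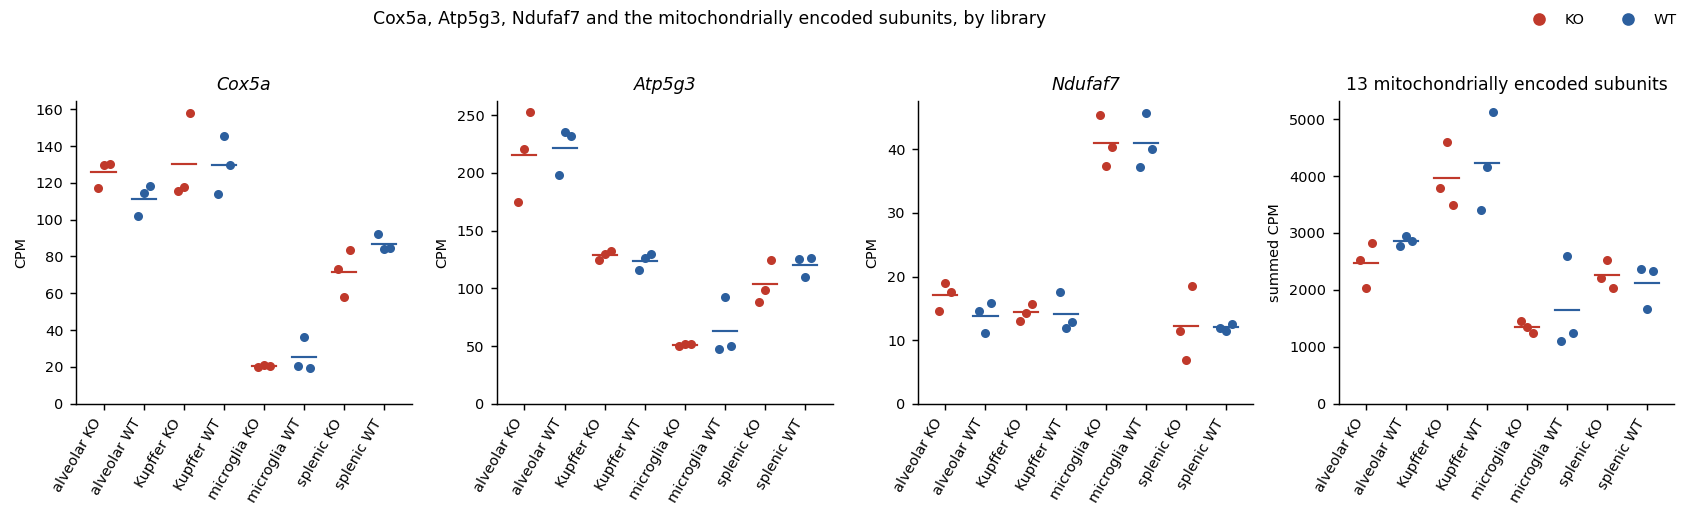
CPM of Cox5a, Atp5g3 and Ndufaf7 and summed CPM of the 13 mitochondrially encoded subunits, with 1 point per library and lines at group means, KO left of WT. Cox5a and Atp5g3 are lowest in microglia, Ndufaf7 is highest there, and the mitochondrially encoded sum is highest in Kupffer cells.

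Complex IV has tissue isoforms, pairs of genes of which 1 is general and the other known from a few tissues, and these minor isoforms gave the largest differences between cell types. Cox6b2, an isoform known from testis, was found mainly in alveolar macrophages, at 20, 25.6 and 21.0 CPM in KO and 22.2, 23.7 and 28.7 CPM in WT libraries. It had 2.79, 2.94 and 4.71 CPM in KO and 1.90, 1.10 and 1.14 CPM in WT splenic macrophages, and 1.3, 0.953 and 1.04 CPM in KO and 0.901, 0.302 and 0.590 CPM in WT Kupffer cells. Microglia held 0.254, 0.597 and 0.0793 CPM in KO and 0.615, 0.554 and 0.0394 CPM in WT libraries. The highest library of another type, at 4.71 CPM, lay far below the lowest alveolar library. The log2 difference of alveolar macrophages was 4.39 in KO (SE 0.37, a 21.0-fold difference, edgeR adjusted p = 4.54e-06) and 5.16 in WT (SE 0.48, 35.7-fold, adjusted p = 9.69e-06). Microglia and Kupffer cells were lower, with log2 differences of -3.79 in KO and -2.68 in WT microglia and of -1.54 in KO and -2.18 in WT Kupffer cells, all called. The WT Kupffer call was lost without Kupffer replicate 2 or 3 (adjusted p = 0.0994 and 0.0839), and the KO Kupffer call without any of the 3 Kupffer replicates or splenic KO replicate 3 (adjusted p up to 0.112).

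Measured as a share of the summed TPM of the pair, Cox6b2 made up 6.95% ± 0.148 in KO and 9.13% ± 0.0765 in WT alveolar macrophages (SD, n = 3 each), so Cox6b1 was the main gene of the pair in every group. The share was 2.80% in KO and 0.965% in WT splenic macrophages, and at most 0.541% in the other groups. Counted without length scaling (CPM) the alveolar share was 10.5% in KO and 13.6% in WT. Neither gene shared a 75-base stretch with another gene's transcript. Both lie on chromosome 7, Cox6b2 at chr7:4751792-4753094 and Cox6b1 at chr7:30616861-30626151 (GRCm38, minus strand), and the pair of promoters is shown for comparison, Cox6b2 at chr7:4753045-4753344 and Cox6b1 at chr7:30626065-30626364. Capitals mark the single match to the 4 motifs, a GABP/ETS site in Cox6b1.
Cox6b2: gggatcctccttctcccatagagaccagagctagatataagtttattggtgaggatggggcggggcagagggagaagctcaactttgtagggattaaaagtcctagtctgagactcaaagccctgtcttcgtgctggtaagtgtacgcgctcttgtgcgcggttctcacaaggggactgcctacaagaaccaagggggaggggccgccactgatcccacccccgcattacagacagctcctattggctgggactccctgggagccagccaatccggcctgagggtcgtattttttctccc
Cox6b1: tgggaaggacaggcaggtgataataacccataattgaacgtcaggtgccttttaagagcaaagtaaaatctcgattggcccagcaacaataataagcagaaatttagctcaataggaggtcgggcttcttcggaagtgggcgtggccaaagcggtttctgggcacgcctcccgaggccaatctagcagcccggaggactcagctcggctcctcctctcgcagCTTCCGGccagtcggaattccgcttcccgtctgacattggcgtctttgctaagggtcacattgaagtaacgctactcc

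Cox6a2, an isoform known from heart and skeletal muscle, was highest in splenic macrophages, at 20.1, 20.3 and 16.4 CPM in KO and 9.73, 8.79 and 15.6 CPM in WT libraries. Microglia came next, with 1.09, 4.04 and 3.98 CPM in KO and 1.79, 3.99 and 2.60 CPM in WT libraries. Alveolar macrophages had 0.311, 0.528 and 0.107 CPM in KO and 0, 0.0825 and 0.259 CPM in WT libraries, and Kupffer cells 0.212, 0.0669 and 0.860 CPM in KO and 0.139, 0.286 and 0.787 CPM in WT libraries. The 4 types fell into 3 levels without overlap, with alveolar macrophages and Kupffer cells together at the bottom. Splenic macrophages were higher by 4.83 in KO (SE 0.61, 28.5-fold, edgeR adjusted p = 0.000136) and 4.61 in WT (SE 0.62, 24.3-fold, adjusted p = 0.000249) on the log2 scale. Alveolar macrophages were lower, at -3.14 in KO (adjusted p = 0.0104) and -4.37 in WT (adjusted p = 0.00364), and microglia stood at 1.21 in KO (adjusted p = 0.14) and 1.84 in WT (adjusted p = 0.0363). The WT microglia call was lost without microglia replicate 2 (1.53, adjusted p = 0.131) or replicate 3 (1.88, adjusted p = 0.0752) and without 5 single libraries of the other types.

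Cox6a2 made up 13.1% ± 2.99 of the pair's summed TPM in KO and 7.46% ± 1.71 in WT splenic macrophages (SD, n = 3 each), 3.88% in KO and 2.96% in WT microglia, and at most 0.221% in the other groups. The 5 muscle markers summed to between 0.0387 and 0.332 CPM in KO and between 0.0359 and 1.0 CPM in WT splenic libraries, with Mb at 0 in WT. Plasmacytoid dendritic cells of the mouse are known to express Cox6a2. A list of 5 of their markers, added with results of these data known, summed to between 2.48 and 6.78 CPM in KO and between 61.5 and 97.1 CPM in WT splenic libraries, with KO below WT for this list and above WT for Cox6a2. Most of the WT sum was Ly6d, at 0.832, 0.814 and 0.0949 CPM in KO and 89.8, 56.1 and 75.5 CPM in WT splenic libraries, a gene that B cells also express. Of the other markers of the list, Ccr9 had 2.04, 0.0387 and 2.69 CPM in KO and 0.467, 1.0 and 0.409 CPM in WT, and Pacsin1 had 3.47, 1.61 and 1.69 CPM in KO and 4.31, 1.41 and 2.61 CPM in WT, so KO and WT overlapped for both. Siglech had 0.434, 0.0194 and 0.0474 CPM in KO and 2.55, 2.34 and 2.15 CPM in WT splenic libraries, without overlap. Klk1 was at 0 in every KO splenic library and had 0, 0.657 and 0.942 CPM in WT. The part of these cells in the level of Cox6a2 was not tested. In microglia the same list summed to at least 1448 CPM through Siglech, which microglia also express. Its partner Cox6a1, the highest of all 96 genes, is shown because it carried the most matches among the isoform genes printed here, and had in its promoter (chr5:115348909-115349208, minus strand, GRCm38.p6) 3 NRF1 matches, of which 2 overlap on opposite strands in the first run of capitals, and 1 GABP/ETS match.
Cox6a1: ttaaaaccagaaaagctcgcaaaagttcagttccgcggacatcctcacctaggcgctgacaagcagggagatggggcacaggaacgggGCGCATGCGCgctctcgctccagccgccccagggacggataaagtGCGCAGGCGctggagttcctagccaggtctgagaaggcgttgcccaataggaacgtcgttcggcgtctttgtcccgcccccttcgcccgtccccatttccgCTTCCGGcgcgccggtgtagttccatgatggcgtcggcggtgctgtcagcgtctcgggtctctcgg

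Cox4i2, known as the isoform of subunit 4 found in lung and induced by low oxygen, was also highest in splenic macrophages and not in the lung cells. It had 2.33, 1.65 and 2.18 CPM in KO and 1.74, 1.86 and 1.69 CPM in WT splenic libraries, against 1.74, 0.429 and 0.923 CPM in KO and 0.632, 0.429 and 0.591 CPM in WT alveolar macrophages. A single library of KO alveolar macrophages lay within the splenic range and the others below it. Kupffer cells had between 0.346 and 0.836 CPM over their 6 libraries and microglia between 0 and 0.434 CPM. The log2 difference of splenic macrophages was 1.97 in KO (SE 0.43, edgeR adjusted p = 0.00539) and 2.39 in WT (SE 0.65, adjusted p = 0.0199), and microglia were lower, at -1.70 in KO (adjusted p = 0.0225) and -2.52 in WT (adjusted p = 0.0343). Cox4i1 held 97.8% of the pair's summed TPM in KO and 98.3% in WT splenic macrophages and at least 99.5% in the other groups. The WT splenic call of Cox4i2 was lost without replicate 1, 2 or 3 of that group (adjusted p = 0.0555, 0.0704 and 0.0582), and its WT microglia call without microglia replicate 3 (adjusted p = 0.0949) and 4 single libraries of the other types.

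Cox7a1, the heart and muscle isoform of subunit 7a, was higher in alveolar macrophages, at 3.03, 1.44 and 1.08 CPM in KO and 1.54, 1.45 and 1.85 CPM in WT libraries, than in any other group. Kupffer cells held between 0.294 and 0.753 CPM, splenic macrophages between 0.0533 and 0.584 CPM and microglia between 0 and 0.401 CPM. The log2 difference of alveolar macrophages was 3.08 in KO (SE 0.43, edgeR adjusted p = 0.000195) and 2.42 in WT (SE 0.81, adjusted p = 0.04), and the WT call was lost without alveolar replicate 1, 2 or 3 (adjusted p = 0.0987, 0.0973 and 0.113) and without most single libraries of the other types. Cox7a2 was the main gene of this group, and Cox7a2l, which is known to join complexes III and IV into supercomplexes, was set beside it. In microglia Cox7a2l differed by -0.38 in KO microglia (adjusted p = 0.0105) and -0.24 in WT microglia (adjusted p = 0.221), and Cox7a2 by -1.20 in KO (adjusted p = 3.11e-05) and -0.85 in WT (adjusted p = 0.0024). Cox7a2l made up 43.4% ± 1.49 of the group's summed TPM in KO and 40.1% ± 3.03 in WT microglia, against 24.2% ± 1.4 in KO and 27.7% ± 0.965 in WT alveolar macrophages (SD, n = 3 each).

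Ndufa4l2, a paralogue of Ndufa4 known to be induced by low oxygen, was low in every group. It had 0.672, 1.32 and 1.37 CPM in KO microglia and 0, 0.420 and 1.87 CPM in WT microglia, and at most 0.819 CPM in any other library. It was called higher in KO microglia, by 2.82 on the log2 scale (SE 0.98, edgeR adjusted p = 0.038), and had a log2 difference of 1.44 in WT microglia (SE 1.37, adjusted p = 0.432). The KO call was lost with a replicate block and without 7 single libraries, among them each KO microglia library (adjusted p up to 0.112). The 6 markers of pericytes and smooth muscle, none of them at 0, summed to between 70.9 and 84.2 CPM in KO and between 25.6 and 54.8 CPM in WT microglia, and to at most 59.6 CPM in the other types. Among them Myh11 had 28.4, 19.1 and 31.2 CPM in KO and 6.9, 2.81 and 15.7 CPM in WT microglia. The part of these cells in the levels of Ndufa4l2 and Cox4i2 in microglia was not tested. Ndufa4 itself was lower in microglia, with log2 differences of -1.13 in KO and -0.81 in WT, both called. Among the remaining isoform genes, Cox7b and Cox8a held at least 99.8% of their groups' summed TPM in every cell type.

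**Figure D4:**
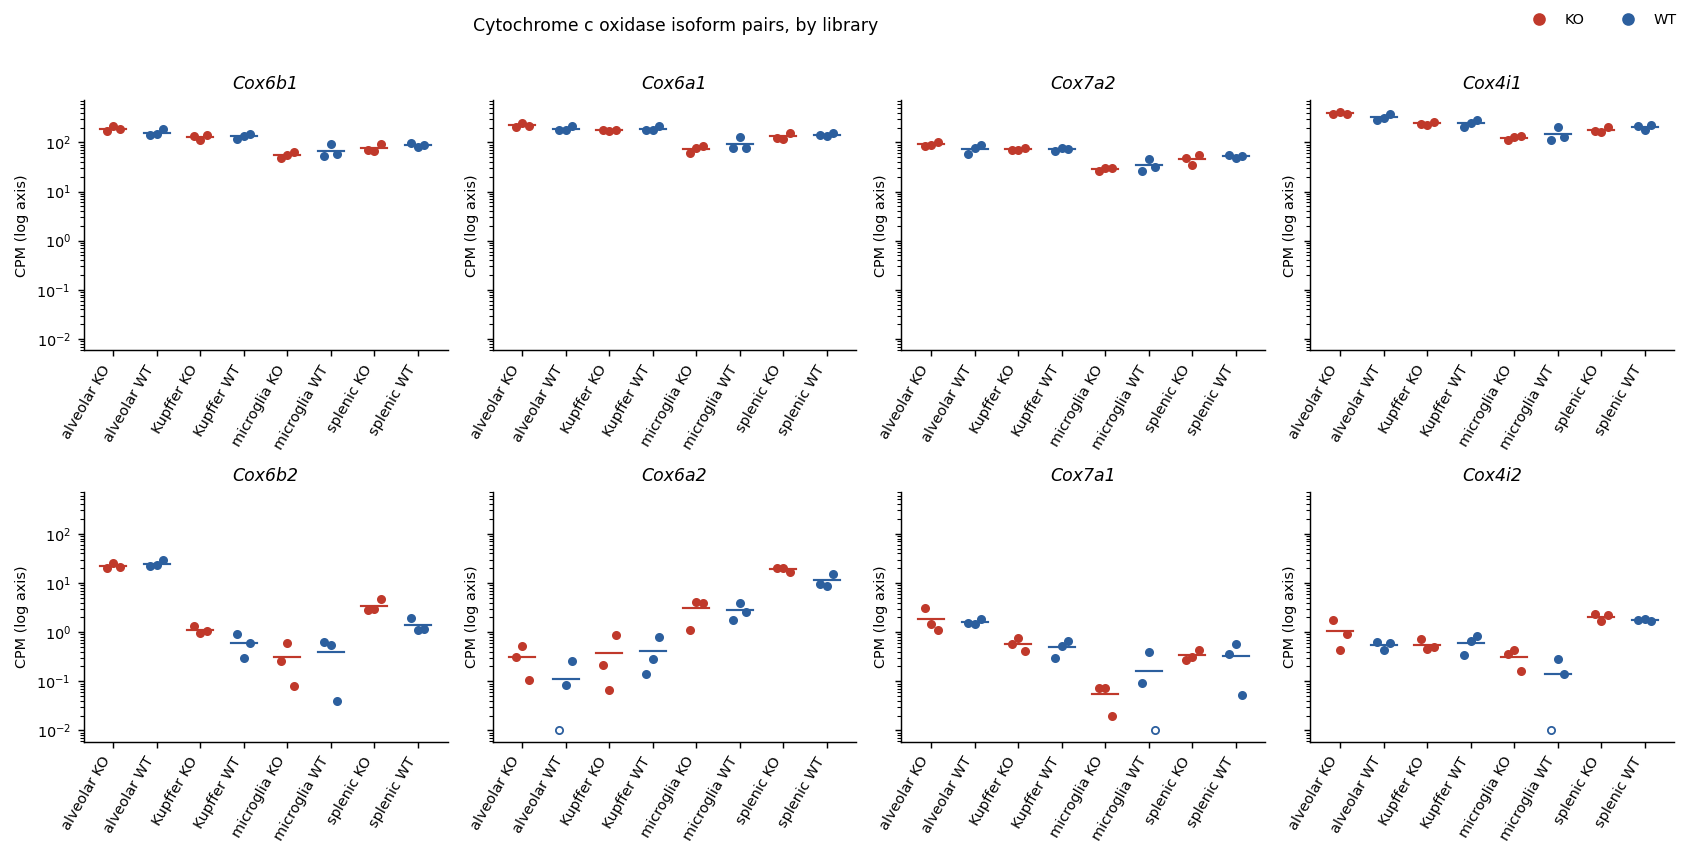
CPM on a log axis of 4 pairs of complex IV isoforms in each library, KO left of WT; lines are group means and open symbols at 0.01 stand for libraries with 0 counts. By mean, Cox6b2 and Cox7a1 are highest in alveolar macrophages, Cox6a2 and Cox4i2 in splenic macrophages, and the general isoforms Cox6b1, Cox6a1, Cox7a2 and Cox4i1 are lowest in microglia.

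The KO genotype was compared with WT within each cell type, and no respiratory chain gene was called in any of the 4. In alveolar macrophages 0 of 92 tested members were called by edgeR, where 0.317% of all genes were called, and 7 members had an unadjusted p under 0.05. In Kupffer cells 0 of 91 were called (0.0629% of all genes) and 0 had an unadjusted p under 0.05. In microglia 0 of 91 were called, as were 0% of all genes, and 0 had an unadjusted p under 0.05. In splenic macrophages 0 of 91 were called (0.747% of all genes) and 9 had an unadjusted p under 0.05. The genotype effect did not pass a test of its difference between cell types for any member (0 of 92, 0.524% of all genes, 7 with an unadjusted p under 0.05), nor did the mean effect over the 4 types (0 of 92, 0.624% of all genes, 1 with an unadjusted p under 0.05). DESeq2 called 2 members in alveolar macrophages, 1 in splenic macrophages and 0 in Kupffer cells and microglia. The shares of all genes given here are those of edgeR calls. The counts by DESeq2 and by unadjusted p are not set against a share of all genes.

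The 3 genes called by DESeq2 did not pass in edgeR. Atp5d, the delta subunit of the ATP synthase head, had a log2 fold change of 0.41 in KO over WT alveolar macrophages (DESeq2 adjusted p = 0.0315), with 0.40 in edgeR (SE 0.11, adjusted p = 0.197). Sdhc had 116, 119.8 and 124 CPM in KO and 83.5, 88.7 and 108 CPM in WT alveolar macrophages, a log2 fold change of 0.40 in DESeq2 (adjusted p = 0.0496) and 0.39 in edgeR (SE 0.12, adjusted p = 0.24). Cox6b2, given per library above, had a log2 fold change of 1.39 in splenic macrophages by DESeq2 (adjusted p = 0.0206) and 1.38 by edgeR (SE 0.38, adjusted p = 0.222), with all 3 KO libraries above all 3 WT libraries.

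The members' median fold changes between KO and WT were small. In KO over WT alveolar macrophages 71 of 92 had a log2 fold change above 0, with a median of 0.12, against a median of -0.01 for all genes tested. The alveolar median was 0.0552, with 55 of 92 above 0, without WT replicate 1, 0.207 without WT replicate 2 and 0.212 without WT replicate 3. In Kupffer cells 51 of 91 were above 0, with a median of 0.02, which turned to -0.05 without Kupffer WT replicate 1 and to -0.04 without Kupffer KO replicate 3. In splenic macrophages 11 of 91 were above 0, with a median of -0.16, and in microglia 8 of 91, with a median of -0.28, against medians of -0.0029 and -0.0065 for all genes. Without WT microglia replicate 2 the microglia median was -0.03 and 35 of 91 were above 0. The splenic median was -0.26 without splenic KO replicate 3, with 6 of 92 above 0. The cytosolic ribosomal protein genes had medians of 0.18 in alveolar macrophages, -0.015 in Kupffer cells, -0.25 in microglia and -0.18 in splenic macrophages. The microglia median includes WT replicate 2, where these genes took 0.757% of counts, against 0.413% and 0.444% in replicates 1 and 3. In alveolar macrophages the neutrophil markers summed to 415 to 542 CPM in KO and 176 to 333 CPM in WT libraries, and the epithelial markers to 367 to 468 CPM in KO and 155 to 344 CPM in WT libraries. In splenic macrophages the neutrophil markers summed to 291 to 349 CPM in KO and 128 to 160 CPM in WT libraries. The epithelial sum joins 4 markers, and a sum of this kind can rest on a single gene of its list. A higher epithelial sum in KO libraries therefore does not by itself show that they held more epithelial cells. Whether KO libraries held more neutrophils was not tested. The part of such cells, or of the pericyte and smooth muscle markers of microglia given above, in the members' shifts was not tested. Summed over all 96 genes, the KO level was 107% of the WT level in alveolar macrophages, 100% in Kupffer cells, 89.7% in microglia and 87.0% in splenic macrophages. The microglia share rests on WT replicate 2, at 10186 TPM. WT microglia replicates 1 and 3, at 7395 and 7797 TPM, overlapped the KO microglia libraries, at 7256 to 7763 TPM.

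**Figure D5:**
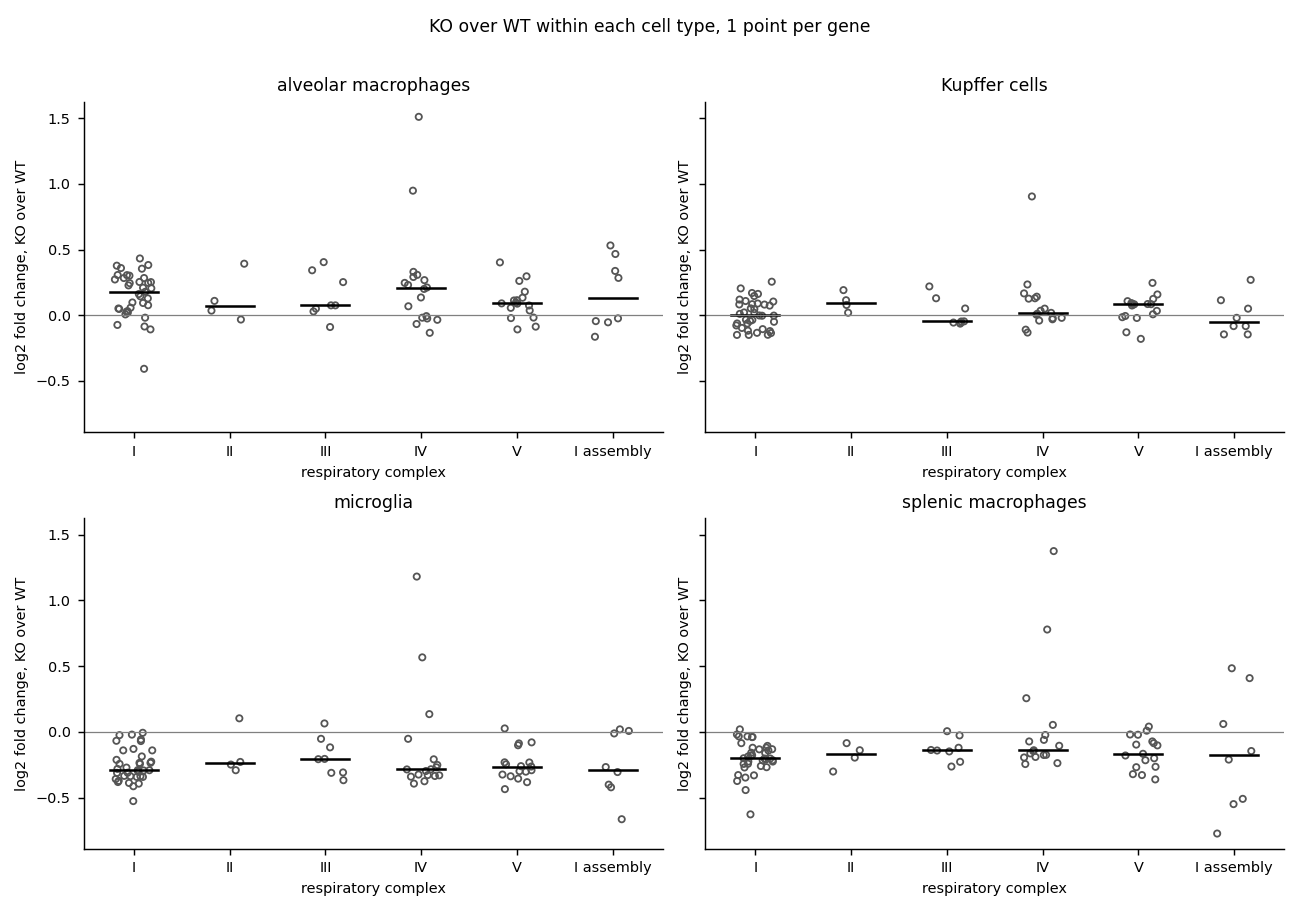
Log2 fold change KO over WT of each tested member by cell type and complex, with bars at medians. The medians lie above 0 in alveolar macrophages and below 0 in microglia and splenic macrophages, and 0 members were called by edgeR.

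The largest single fold changes mostly belonged to genes of low level, and none passed the test. Ndufb10, named below for Kupffer cells, was not of low level, at 178 TPM averaged over the 24 libraries. In alveolar macrophages Cox6a2 and Cox4i2 had the highest log2 fold changes, 1.51 (SE 1.31, edgeR adjusted p = 0.729) and 0.95 (SE 0.66, adjusted p = 0.643), and Ndufb2 and Ndufaf4 the lowest, -0.41 (adjusted p = 0.682) and -0.16 (adjusted p = 0.833). In Kupffer cells the highest were Cox6b2 at 0.90 (SE 0.56, adjusted p = 0.836) and Ndufaf6 at 0.27 (adjusted p = 0.892), and the lowest Atp5o at -0.18 (adjusted p = 0.917) and Ndufb10 at -0.15 (adjusted p = 0.928). In microglia Cox4i2 stood at 1.18 (SE 1.22, adjusted p = 0.987) and Ndufa4l2 at 0.57 (SE 1.28, adjusted p = 0.991), and Ndufaf5 at -0.67 (SE 0.34, adjusted p = 0.987) and Ndufa5 at -0.53 (SE 0.24, adjusted p = 0.987).

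In splenic macrophages the highest after Cox6b2 was Cox6a2, which had a log2 fold change of 0.78 (SE 0.27, edgeR adjusted p = 0.315), with all 3 KO libraries above all 3 WT libraries. The lowest there were Ndufaf5, an assembly factor known to modify a complex I subunit in human cells, at -0.77 (SE 0.27, adjusted p = 0.333) and the small subunit gene Ndufb2 at -0.63 (SE 0.29, adjusted p = 0.467). Ndufaf5 had 3.28, 2.98 and 3.34 CPM in KO and 6.87, 5.86 and 4.18 CPM in WT splenic libraries, without overlap. Ndufb2 had 3.67, 2.67 and 4.67 CPM in KO and 7.16, 5.42 and 4.89 CPM in WT splenic libraries, also without overlap.

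The 13 subunits made from mitochondrial DNA did not follow the order of the nuclear genes. Their summed CPM was highest in Kupffer cells, at 3793, 4606 and 3486 in KO and 3405, 4158 and 5125 in WT libraries. Alveolar macrophages held 2530.1, 2042 and 2831 in KO and 2768, 2939 and 2855 in WT libraries, splenic macrophages 2205, 2528 and 2035 in KO and 2376, 1664 and 2330.1 in WT, and microglia 1460, 1353 and 1246 in KO and 1095, 2587 and 1243 in WT. Kupffer libraries lay above all others, while alveolar and splenic libraries overlapped and WT microglia replicate 2 lay among them. In every library mt-Co1 and mt-Cytb gave the largest parts of the sum, at 865 and 829 of 2530.1 CPM in alveolar KO replicate 1. Stretches shared with other transcripts were not searched for these 13 genes. In Kupffer cells 12 of 13 were called higher in KO and 7 in WT libraries, with median log2 differences of 0.94 and 0.77. Beside this, hepatocyte markers summed to 101 to 153 CPM in KO and 116 to 262 CPM in WT Kupffer cells and to at most 79.8 CPM in the other types, and endothelial markers to 832 to 1957 CPM in KO and 1868 to 2276 CPM in WT Kupffer cells. The part of these cells in the mitochondrially encoded level was not tested. In microglia 10 were called lower in KO and 5 in WT libraries (medians -0.96 and -0.59), and 10 in WT without microglia replicate 2 (median -1.14). In alveolar macrophages, where most nuclear genes were called, the medians of the 13 were 0.05 in KO and 0.255 in WT. Between KO and WT their median log2 fold change was -0.30 in alveolar macrophages, -0.09 in Kupffer cells, -0.26 in microglia and 0.05 in splenic macrophages. The microglia value includes WT replicate 2, whose sum of 2587 CPM lay above the 1095 and 1243 CPM of replicates 1 and 3.

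Within this set mt-Atp6, a membrane subunit of ATP synthase, was higher in Kupffer cells by 1.23 in KO (SE 0.15, edgeR adjusted p = 0.000152) and 0.95 in WT (SE 0.19, adjusted p = 0.00376) and lower in microglia, at -1.40 in KO (adjusted p = 8.45e-05) and -1.42 in WT (adjusted p = 0.000372). In WT microglia the complex I subunits mt-Nd1 and mt-Nd2 had log2 differences of -0.22 (adjusted p = 0.446) and -0.17 (adjusted p = 0.663), and the catalytic cytochrome oxidase subunit mt-Co1 had -1.28 (adjusted p = 0.00412). Without WT microglia replicate 2 these 3 genes were called lower, at -0.62 (adjusted p = 0.0138), -0.75 (adjusted p = 0.00938) and -1.80 (adjusted p = 0.000163). In KO microglia they differed by -0.65 (adjusted p = 0.01), -0.75 (adjusted p = 0.00916) and -1.48 (adjusted p = 5.44e-06).

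Neighbouring pathways were read from lists of genes outside the rule, whose counts stand against the same shares of all genes as those of the members (20.6% higher in KO and 17.3% in WT alveolar macrophages, and 21.2% lower in KO and 20.3% in WT microglia). Of 17 genes of pyruvate dehydrogenase and the citrate cycle, 12 were higher in KO and 10 in WT alveolar macrophages. In microglia 11 were lower and 1 higher in KO, and 10 were lower and 2 higher in WT, where the counts were 12 and 1 without replicate 2. Ogdh, of the 2-oxoglutarate dehydrogenase complex, was higher in alveolar macrophages by 1.25 in KO and 1.17 in WT and lower in microglia, at -1.24 in KO and -1.40 in WT on the log2 scale, all called by edgeR. Idh2, the mitochondrial isocitrate dehydrogenase that makes NADPH, went the other way in microglia, by 0.93 in KO and 1.25 in WT, both called. Of 16 genes for electron carriers and their enzymes, 7 were higher in KO and 5 in WT alveolar macrophages, and 5 were lower in KO and 7 in WT microglia, where 2 were also higher in WT. The WT microglia count was 5 lower without replicate 2. Cycs, cytochrome c, was higher in alveolar macrophages by 0.80 in KO and 0.82 in WT and lower in microglia, at -1.16 in KO and -0.91 in WT, all called. Etfb, of the flavoprotein that brings electrons from fatty acid oxidation, was lower in microglia, at -1.31 in KO and -1.54 in WT, and higher in alveolar macrophages by 0.77 in KO and 1.0 in WT, all called. Its alveolar level, 9.55, 15.4 and 13.4 CPM in KO and 14.6, 17.0 and 15.2 CPM in WT, overlapped that of splenic macrophages, at 12.3, 11.8 and 15.9 CPM in KO and 13.7, 17.0 and 15.7 CPM in WT, so the alveolar difference lay against microglia and Kupffer cells.

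The cytosolic ribosomal protein genes were also called in these comparisons, more in KO than in WT libraries. Of 82 tested, 66 were higher in KO and 8 in WT alveolar macrophages (medians 0.56 and 0.22), against 20.6% and 17.3% of all genes, so the WT share lay below that of all genes. In microglia 69 were lower in KO and 25 in WT (medians -0.70 and -0.40), against 21.2% and 20.3% of all genes. Without WT microglia replicate 2 the WT counts were 34 higher in alveolar macrophages and 66 lower in microglia. The members' medians in the same comparisons, given above, were larger in alveolar macrophages of both genotypes. In KO microglia the members' median, as rounded above, equalled that of the ribosomal genes. In WT microglia with all libraries the members' median lay slightly further below 0. Without replicate 2 the ribosomal median there was -0.72. The members' medians by complex were then -0.49 for complex I, -0.53 for II, -0.88 for III, -1.09 for IV and -0.93 for V. That of the assembly factors was 0.19. The difference between the gene sets was not tested.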

How the data were processed

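RNA from sorted macrophages was extracted with NucleoSpin RNA XS, made into libraries by SMARTer Ultra Low amplification, and read by a NovaSeq X Plus instrument, per the labels' protocols. The authors deposited raw read counts per gene, CPM values and TPM values, per the file headers. STAR, Salmon, featureCounts, Subread and DRAGEN and the build mm10 are named in the submitters' processing notes; which tool made which column, the strand setting and the treatment of reads with several matches are not given in the sources used here. In 4 splenic TPM columns the deposited values, recorded as a score, add up to more than TPM allows because the table repeats rows. The table had 55774 rows, of which 287 repeats were dropped to leave 55487 genes, and 0 value columns were left unused. CPM recomputed from the counts differed from the deposited values by at most 4.7e-11.

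Counts were tested with edgeR 4.0.16 in R 4.3.3 (TMM normalisation, filterByExpr with a minimum count of 10, quasi-likelihood test, Benjamini-Hochberg over all genes tested) and, as an alternative, with DESeq2 1.42.0; tables were joined in Python 3.11.15. KO was compared with WT in each cell type with the 6 libraries of that type, each type with the mean of the other 3 within a genotype with its 12 libraries, and the interaction and mean effect with all 24 libraries. The code was tested on simulated data. Alternatives were DESeq2 size factors, no count filter, the replicate number as a block, CPM in place of TPM, and leaving out each library. Reads carried no molecular identifiers, so limits from counts cover counting error only. Genes named were the members called between KO and WT, the 2 highest and 2 lowest KO over WT in each type, the 4 highest and 4 lowest called members in each WT type, isoform groups, core subunits (1 of them is not reported here) and the extremes of level in each complex, with up to 4 genes from each related list; other members were named after their values were seen. The members and lists were chosen with earlier results of these data known.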

Additional observations from a re-analysis of the deposited data

How the results depend on the processing

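Of 385 recomputed counts and ratios, 338 stayed the same, which meant within 1.5 times for counts and within the SD carried over from the replicates for ratios. Of 536 recomputed values of single genes, 468 kept their direction and side of the threshold. DESeq2 called 2 members between KO and WT in alveolar macrophages and 1 in splenic macrophages, against 0 each by edgeR. The DESeq2 counts, and those of the other settings in this paragraph, are not set against a share of all genes. Without the count filter the lower members were 1 each in WT alveolar macrophages, WT Kupffer cells and WT splenic macrophages and 11 in KO splenic macrophages, and the higher members in KO Kupffer cells were 12. With a replicate block, 1 member was lower in KO Kupffer cells and 1 higher in KO microglia. Deviations of same-numbered libraries correlated between -0.04 and 0.073 over 36 pairs of cell types and 12 pairs of genotypes. Libraries of the same number may still share a mouse, which these correlations cannot exclude. Leaving out 1 library at a time, the higher and lower members ranged in WT libraries from 28 to 61 and 1 to 2 in alveolar macrophages, 1 to 10 and 0 to 5 in Kupffer cells, 2 to 6 and 31 to 67 in microglia, and 1 to 6 and 0 to 4 in splenic macrophages. In KO libraries they ranged from 8 to 28 and 0 to 3 in Kupffer cells, 1 to 3 and 64 to 74 in microglia, and 2 to 3 and 9 to 28 in splenic macrophages, and in KO alveolar macrophages 69 to 74 were higher. The WT extremes of 61, 10, 5 and 67 and the 6 in splenic macrophages came without microglia replicate 2; Kupffer WT replicates 2 and 3 each left 0 lower and splenic WT replicates 1 and 2 each left 0 lower. Without Kupffer KO replicate 1 no member was lower in KO Kupffer cells, and Kupffer KO replicates 2 and 3 and splenic KO replicate 3 each left 1. The KO microglia count of 1 higher member came without alveolar KO replicate 2 or 3, any microglia KO replicate or splenic KO replicate 3. Between KO and WT 0 members were called by edgeR with any library left out. The KO over WT value of Ndufa4l2 in microglia ranged from -0.017 without WT replicate 1 to 2.45 without WT replicate 3, against 0.57 with all libraries. Counted in CPM, complex V of KO microglia was 39.2% of KO alveolar macrophages, against 42.8% in TPM. The causes of these changes were not tested. With 3 libraries a group small KO effects may be missed.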

Other observations

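Regulators of mitochondrial biogenesis are the factors known to switch on respiratory chain genes. Of 15 tested, 6 were higher and 1 lower in KO microglia (22.3% and 21.2% of all genes), and 2 were higher and 1 lower in WT microglia (21.7% and 20.3% of all genes). The lower gene in both was Ppargc1b, a coactivator of mitochondrial genes, with 1.60, 4.31 and 0.892 CPM in KO and 3.71, 1.17 and 3.37 CPM in WT microglia, against 18.3 to 37.5 CPM in every other library. Its log2 difference was -3.54 in KO (SE 0.44, edgeR adjusted p = 7.69e-05) and -3.33 in WT microglia (SE 0.40, adjusted p = 5.75e-05), and 0.95 in KO and 1.08 in WT alveolar macrophages, both called. The alveolar values rest on the microglia in the mean of the other types: alveolar libraries held 20.7 to 27.7 CPM in KO and 25.5 to 32.9 CPM in WT, against 25 to 32.6 CPM in KO and 29.8 to 30.9 CPM in WT Kupffer cells and 26.6 to 30.5 CPM in KO and 18.3 to 37.5 CPM in WT splenic macrophages. Gabpb1, a subunit of the factor GABP, was higher in microglia by 0.84 in KO and 0.55 in WT and lower in alveolar macrophages, at -0.65 in KO and -0.75 in WT, all called; the WT microglia call was lost without replicate 2 (0.55, adjusted p = 0.0851). Myc had 88.5, 90.9 and 118 CPM in KO and 238, 202 and 209.6 CPM in WT alveolar macrophages, a log2 fold change of -1.10 (SE 0.13, adjusted p = 0.0263), and was the 1 regulator called between KO and WT there.

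Of 36 tested assembly factors outside the name rule, 7 were lower and 6 higher in KO microglia (21.2% and 22.3% of all genes) and 6 were lower and 4 higher in WT microglia (20.3% and 21.7% of all genes), or 5 and 2 without WT replicate 2. Cox17, the copper chaperone of complex IV, was higher in alveolar macrophages by 2.09 in KO (adjusted p = 0.000121) and 1.33 in WT (adjusted p = 0.0059). Cox20, which helps mature the subunit COX2 in human cells, went the other way, with log2 differences of -1.61 in KO and -1.37 in WT alveolar macrophages and of 1.38 in KO and 1.66 in WT microglia, all called. Of the complex II assembly factors, Sdhaf2, which is known for loading the flavin onto SDHA, was lower in microglia, at -0.97 in KO and -0.63 in WT, while Sdhaf1 was higher there, at 1.08 in KO and 0.77 in WT, all called. The WT call of Sdhaf1 was lost without microglia replicate 2 (0.53, adjusted p = 0.185).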
